A study of Homo sapiens with 4 samples.

Results

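PC14 is a line of human lung cancer cells of the non-small-cell type, and the comparison described here set its mesenchymal CD133-high cells against its epithelial CD133-low cells, so that both sorted markers differed at once. The members are 2 of the 4 arrays, chosen by their labels: E-CD133+ cells (E-cadherin-low, CD133-high) over E+CD133- cells (E-cadherin-high, CD133-low). The remaining subpopulations, E+CD133+ (E-cadherin-high, CD133-high) and E-CD133- (E-cadherin-low, CD133-low), differ from E+CD133- cells in 1 marker each and served to show what each marker did alone. Cells were sorted by flow cytometry for E-cadherin, the adhesion protein of epithelial junctions, and then for CD133 with green fluorescent protein driven by the P1 promoter of the CD133 gene in a lentivirus, so CD133-high means an active reporter and not CD133 protein on the surface. All 4 subpopulations come from this line, carry the reporter and had no drug treatment named in the labels.

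Epithelial cells lose E-cadherin, desmosomes and polarity genes and gain vimentin and matrix genes when they pass to a mesenchymal state, a change driven by transcription factors such as ZEB1 that bind E-box sequences in promoters of epithelial genes. CD133, the product of PROM1, is a membrane protein used to sort stem-like cells from many carcinomas. The question of the comparison was how a gene's difference with the E-cadherin sort and its difference with the CD133 sort appear when both sorts are combined.

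Total RNA of each group was hybridised to a 1-colour Affymetrix expression array, and each group is 1 array without a replicate. There is therefore no spread between samples, no test and no p-value, and every difference below is a difference between these arrays. Signals are linear MAS5 intensities, each array scaled to the same trimmed mean. Signals under an array's median probe set, its floor, were set to that floor, which lay between 53.7 and 60.3. The floor enters ratios only: signals are printed as deposited. A ratio with 1 array at the floor is a lower bound on the size of the difference. Folds of this kind are written "at least". Log2 ratios and steps are printed without this mark, also where 1 array was at the floor. Of 19775 genes, 14083 were above the floor on at least 1 array and are called measured. A gene was counted when its ratio was at least 2-fold. The combined ratio is the log2 ratio of E-CD133+ over E+CD133- cells, the E-cadherin step is the log2 ratio of E-CD133- over E+CD133- cells, and the CD133 step is that of E+CD133+ over E+CD133- cells. Both steps and the combined ratio share controls: they use the same E+CD133- array, so an odd signal on that array enters all of them. In bulk populations, a difference in the share of cells that express a gene and a difference in its RNA per cell cannot be told apart. The 4 arrays were close in genes above the floor, with 12309 to 12459. For the actin control, the signal at the 3′ end over that at the 5′ end, a sign of RNA or labelling quality, was 1.78 on the E-CD133+ array and 1.53 to 1.59 on the others. For the GAPDH control it was 1.02 against 0.898 to 0.963.

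The sorted markers were checked first. CDH1, which encodes E-cadherin, had signals of 347 in E-CD133+, 5548 in E+CD133+, 528 in E-CD133- and 3546 in E+CD133- cells, and was lower in both E-cadherin-low populations. PROM1 lay below the floor on every array, with 10.3 in E-CD133+, 12.1 in E+CD133+, 4.79 in E-CD133- and 29.7 in E+CD133- cells, so its transcript does not check the CD133 sort. Of the 8 epithelial markers, 6 were measured and 4 were counted as lower in E-CD133+ cells (CDH1, MAL2, DSP and KRT18). KRT18 was just past 2-fold, at -1.01, and after quantile normalization 0 of 4 measured keratins were counted. ESRP1 and KRT19 were below the floor throughout, also in E+CD133- cells. GRHL2 was dim, with 10.9 in E-CD133+, 23.1 in E+CD133+, 83.0 in E-CD133- and 74.0 in E+CD133- cells, and did not follow the E-cadherin sort. EPCAM kept signals of 6554 in E-CD133+ cells against 10717 in E+CD133- cells, a log2 ratio of -0.71. Of 7 mesenchymal markers, 5 were measured and 4 were counted as higher (VIM, ZEB1, POSTN and AXL), while fibronectin (FN1) had a log2 ratio of -0.45 and CDH2 and SPARC were below the floor throughout. The mesenchymal label thus rested on vimentin, ZEB1, periostin and AXL, with N-cadherin below the floor and EPCAM still high.

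In E-CD133+ cells 1113 genes (7.9% of those measured) were counted as higher and 623 (4.42%) as lower than in E+CD133- cells. Together these are 1736 genes (12.3%). At 8-fold or more, 66 were higher and 26 lower. The E-cadherin step alone counted 371 genes (2.63%) as higher and 404 (2.87%) as lower, and the CD133 step 710 (5.04%) and 456 (3.24%). Of the 1736 genes counted with both markers, 498 (28.7%) also passed 2-fold in the same direction with the CD133 step only and 128 (7.37%) with the E-cadherin step only. A further 142 (8.18%) passed with both steps. The largest class, 905 genes (52.1%), passed with neither step, and 632 of these lay within 2-fold of the sum of their log2 steps. In 40 more genes the steps passed 2-fold in opposite directions and the combined ratio followed CD133 (36 genes) or E-cadherin (4 genes). The last 23 went against a step that was itself past 2-fold.

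**Figure D1:**
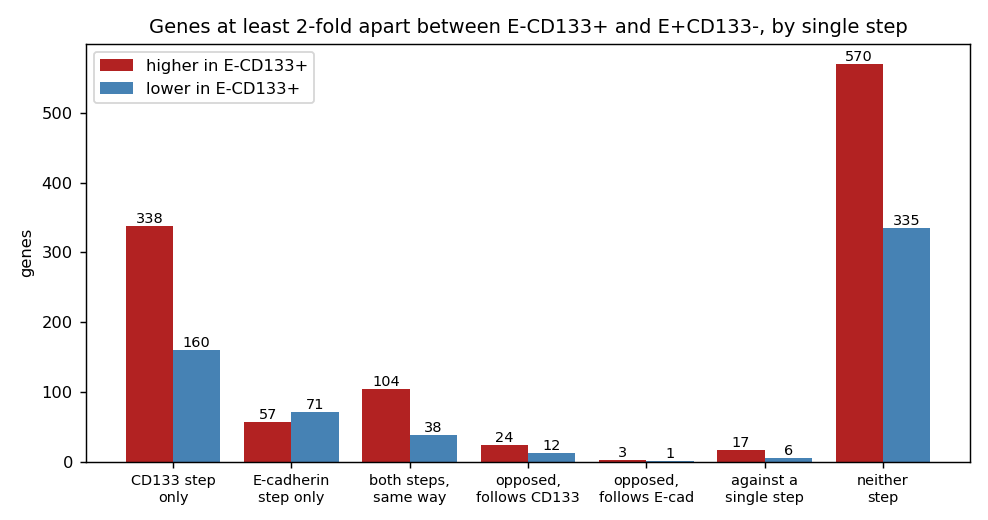
Numbers of genes at least 2-fold higher (red, left bar of each pair) or lower (blue) in E-CD133+ than in E+CD133- cells, split on the horizontal axis by which single-marker steps passed 2-fold. The pair for neither step, 570 higher and 335 lower genes, is the tallest, followed by the CD133 step alone with 338 and 160.

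Of the 1736 genes, 302 were at least 4-fold apart (2.14% of measured genes) and 92 at least 8-fold apart (0.653%). With the steps still judged at 2-fold, the neither class did not lead there. Of the 302 genes, 118 (39.1%) passed with the CD133 step only and 77 (25.5%) with neither. Of the 92 genes, 41 (44.6%) passed with the CD133 step only and 15 (16.3%) with neither. The 570 higher genes with neither step had a median combined log2 ratio of 1.22, against 0.11 for the E-cadherin step and 0.55 for the CD133 step, and a median difference of 0.66 from the sum of the steps. The 335 lower genes with neither step had a median combined log2 ratio of -1.21, against -0.24 for the E-cadherin step and -0.53 for the CD133 step, and a median difference from the sum of -0.54. Over all 1736 genes, 377 went beyond the sum of their log2 steps by more than 2-fold and 135 fell short of it by more than 2-fold. The other 1224 lay within 2-fold of it, a tolerance not far below the median size of the combined log2 ratio itself, 1.33. With 1331 genes above the floor on all 4 arrays, where no value is a bound, 241 went beyond it, 96 fell short of it and 994 lay within it.

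**Figure D2:**
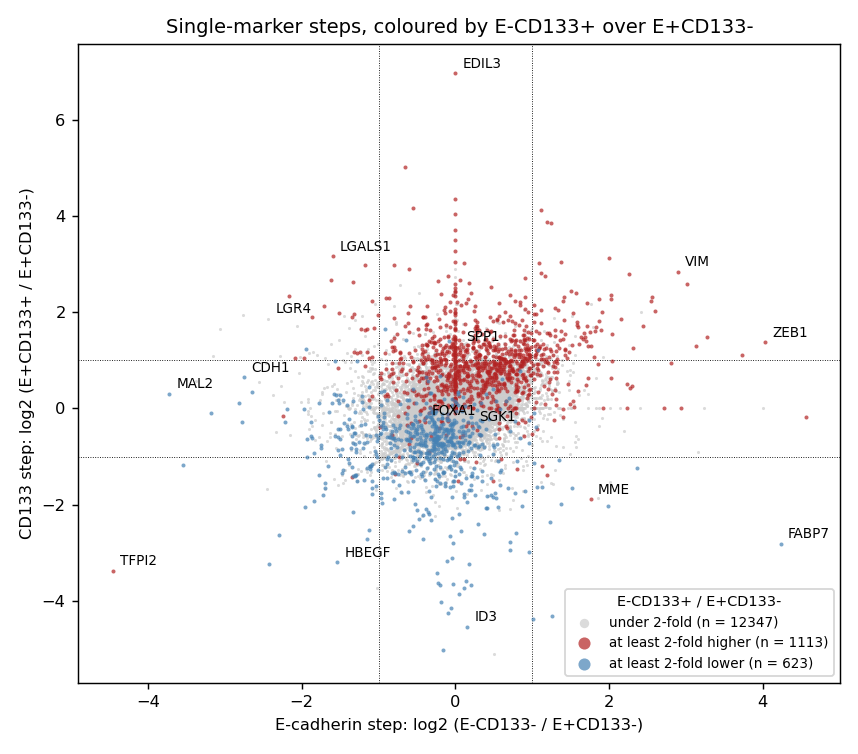
E-cadherin step (horizontal axis, log2) against CD133 step (vertical axis, log2) for each of the 14083 measured genes, coloured by whether E-CD133+ cells were at least 2-fold higher (red), at least 2-fold lower (blue) or under 2-fold (grey) relative to E+CD133- cells; dotted lines mark 2-fold. Red points crowd the upper right and blue points the lower left, and TFPI2 is a red point at the lower left.

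The ratio between the other subpopulations, E-CD133- over E+CD133+, shares no array with this one and separates the markers differently: a gene that goes with E-cadherin has the same direction in both, and a gene that goes with CD133 has opposite directions. By this split 467 of the 1736 genes (26.9%) went with CD133, 96 (5.53%) with E-cadherin, and 1173 (67.6%) were under 2-fold between E-CD133- and E+CD133+ cells. In that pair 1427 genes (10.1%) were counted, 510 (3.62%) as higher and 917 (6.51%) as lower in E-CD133- cells. Across the 14083 genes the log2 ratios of both diagonals had Pearson's r = -0.356 and Spearman's rho = -0.324, and across the 10891 genes above the floor on all 4 arrays r = -0.369 and rho = -0.361. Genes are not independent replicates, and these correlations describe 4 arrays.

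Desmosome genes were lower with the E-cadherin step. Of 8 measured desmosome genes 5 were counted as lower in E-CD133+ cells (62.5%, against 4.42% of measured genes) and 0 as higher, with a median log2 ratio of -1.42 for both markers, -1.39 for the E-cadherin step and 0.15 for the CD133 step. Of 12 measured tight junction genes and 4 measured hemidesmosome and laminin-332 genes 0 were counted in either direction, and their median E-cadherin steps were 0.00 and 0.04. With the mean of a gene's probe sets the desmosome median for both markers was -0.62. Desmosomes tie the intermediate filaments of neighbouring epithelial cells together. DSP, the desmosomal plaque protein desmoplakin, had signals of 505 in E-CD133+, 3656 in E+CD133+, 705 in E-CD133- and 8212 in E+CD133- cells. Its E-cadherin step was -3.54, its CD133 step -1.17 and its combined ratio -4.02 on the log2 scale, and it was lowest in E-CD133+ cells. DSG2, a desmosomal cadherin, was 1459 in E-CD133+, 5303 in E+CD133+, 690.0 in E-CD133- and 4872 in E+CD133- cells, higher in E-CD133+ than in E-CD133- cells. DSC2, the other class of desmosomal cadherin, had signals of 31.7 in E-CD133+, 586 in E+CD133+, 100.4 in E-CD133- and 297 in E+CD133- cells. The E-CD133+ value lay below the floor, so the gene was at least 4.93-fold lower there. PERP, a desmosome-associated membrane protein, was 3769.7 in E-CD133+, 29287 in E+CD133+, 10501 in E-CD133- and 24428 in E+CD133- cells.

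Over the wider list of epithelial adhesion and polarity genes, 10 of 24 measured members were counted as lower (41.7%, against 4.42% of measured genes) and 0 as higher. Of these, 7 went with the E-cadherin step alone. The median log2 ratio was -0.56 with both markers, -1.18 with the E-cadherin step and 0.16 with the CD133 step. Leaving out probe sets marked as shared by the ending of their name gave -0.15 with both markers. MAL2, a protein of transcytosis in polarised cells, had the lowest ratio of the list, with signals of 283 in E-CD133+, 10869.5 in E+CD133+, 664 in E-CD133- and 8772 in E+CD133- cells. It was 31-fold lower in E-CD133+ than in E+CD133- cells, and its combined ratio minus the sum of its steps was -1.54 on the log2 scale. ELF3, an epithelial transcription factor, was above the floor by a wide margin in E+CD133- cells only, at 59.4 in E-CD133+, 50.6 in E+CD133+, 94.3 in E-CD133- and 506 in E+CD133- cells. The 12 measured tight junction genes had 0 counted in either direction and a median log2 ratio of 0.06.

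Because ZEB1 is known to bind the E-box CACCTG, the bases before the start site were searched for CACCTG on either strand, that is CACCTG or CAGGTG. Promoters are the 250 bases upstream of the first start listed for a gene in RefSeq, assembly GRCh38.p14. No promoter of CDH1 was available for the search. Of 53 genes lower with the E-cadherin step alone that had such a promoter, 17 (32.1%) held the motif, and of 30 genes lower with both steps 9 (30%) did. Among genes lower with the CD133 step alone it was 16 of 122 (13.1%), among 11331 measured genes 1822 (16.1%), and among all 27305 promoters 4781 (17.5%). Of 47 genes higher with the E-cadherin step alone, 8 (17.0%) held it. Among higher genes with opposed steps that followed CD133 it was 5 of 16 (31.3%). Among lower genes whose steps were both under 1.5-fold and whose combined ratio lay at least 1 log2 unit from their sum it was 10 of 42 (23.8%). These shares describe letters in a window and were not tested. The promoters below are examples and not a full list. They belong to desmosome and epithelial genes that were lower with the E-cadherin sort and hold the motif more than once. Each is printed 5′ to 3′ on the gene's strand up to the base before the start, with the motif in capitals.
DSP, chr6:7541421-7541670, plus strand: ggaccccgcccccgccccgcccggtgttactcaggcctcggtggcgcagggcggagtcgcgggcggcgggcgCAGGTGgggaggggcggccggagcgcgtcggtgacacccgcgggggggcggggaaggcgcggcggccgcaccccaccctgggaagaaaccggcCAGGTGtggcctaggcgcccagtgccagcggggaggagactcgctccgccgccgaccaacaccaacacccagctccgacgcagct
DSG2, chr18:31497927-31498176, plus strand: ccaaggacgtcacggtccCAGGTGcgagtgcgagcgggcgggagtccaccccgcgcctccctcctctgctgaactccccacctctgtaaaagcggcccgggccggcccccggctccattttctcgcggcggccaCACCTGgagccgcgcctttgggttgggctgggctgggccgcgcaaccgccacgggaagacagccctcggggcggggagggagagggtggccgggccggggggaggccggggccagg
MAP7, chr6:136550423-136550672, minus strand: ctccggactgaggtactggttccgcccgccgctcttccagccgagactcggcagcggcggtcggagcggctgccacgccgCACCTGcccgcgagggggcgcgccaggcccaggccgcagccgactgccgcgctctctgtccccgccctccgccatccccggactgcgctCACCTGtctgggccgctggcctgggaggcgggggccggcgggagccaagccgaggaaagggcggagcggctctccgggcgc
In DSP the 2 motifs begin 178 and 85 bases before the start, in DSG2 232 and 116, and in MAP7 170 and 81. MAP7, a microtubule-binding protein of epithelial cells, had signals of 441 in E-CD133+, 1728 in E+CD133+, 619.9 in E-CD133- and 1649 in E+CD133- cells, lower on both E-cadherin-low arrays.

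Mesenchymal and matrix genes drew on both markers. ZEB1, the repressor of epithelial genes, had signals of 1301 in E-CD133+, 168 in E+CD133+, 1056 in E-CD133- and 64.8 in E+CD133- cells. Both E-cadherin-low arrays were high, the E+CD133+ array was intermediate, and the combined log2 ratio of 4.33 minus the summed steps was -1.07. POSTN, the matrix protein periostin, had the same order at 1219.8 in E-CD133+, 158 in E+CD133+, 970.4 in E-CD133- and 73 in E+CD133- cells. AXL, a receptor tyrosine kinase of mesenchymal carcinoma cells, was 1518 in E-CD133+, 271 in E+CD133+, 151 in E-CD133- and 54 in E+CD133- cells. For AXL the E+CD133- array was under the floor, the steps were 1.40 and 2.24, and E-CD133+ cells were highest, at least 26.4-fold above E+CD133- cells. Of 7 measured transcription factors of the mesenchymal transition, only ZEB1 was counted, and 4 had a log2 ratio below 0. The median of these factors was -0.07 with both markers, -0.74 with the E-cadherin step and -0.21 with the CD133 step.

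Of 21 measured mesenchymal genes 6 were counted as higher (28.6%, against 7.9% of measured genes) and 1, CAV1, as lower, with a median log2 ratio of 0.19 and members in both directions. The median was 0.65 among genes above the floor on all 4 arrays and 0.11 with equal array medians. Without probe sets marked as shared it was 0.00, with 2 of 12 genes higher. Of 27 matrix structural genes 8 were higher (29.6%, against 7.9% of measured genes) and 2 lower (7.41%, against 4.42%), with a median of 0.32. FBN2, the microfibril protein fibrillin-2, had signals of 1808 in E-CD133+, 938 in E+CD133+, 147 in E-CD133- and 64.1 in E+CD133- cells and was highest in E-CD133+ cells, 28.2-fold above E+CD133- cells. COL11A1 and COL12A1, collagen chains found in or on fibrils, went with the E-cadherin step: COL11A1 had 889 in E-CD133+, 133 in E+CD133+, 479 in E-CD133- and 68.7 in E+CD133- cells. COL12A1 had 1019 in E-CD133+, 109 in E+CD133+, 230.3 in E-CD133- and 69.6 in E+CD133- cells, highest in E-CD133+ cells. LAMA1, a laminin chain of basement membranes, was lower, with a log2 ratio of -2.46.

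In some genes with both steps, the steps added up. AKAP12, a scaffold for protein kinase A, had signals of 7427 in E-CD133+, 835 in E+CD133+, 2980.2 in E-CD133- and 339.8 in E+CD133- cells, with steps of 3.13 and 1.30 and a combined ratio of 4.45, a difference of 0.02 from their sum on the log2 scale. EMP1, a tetraspan membrane protein, was 3872 in E-CD133+, 503 in E+CD133+, 1731 in E-CD133- and 179 in E+CD133- cells and differed from its sum by -0.33. HBEGF, a ligand of the epidermal growth factor receptor, added up downwards at 366 in E-CD133+, 872 in E+CD133+, 2754 in E-CD133- and 8016 in E+CD133- cells. Its ratio of -4.45 lay 0.29 from the sum of -1.54 and -3.20. PNMA2 and NAP1L3, the remaining higher genes at the top of the comparison, had combined ratios of 4.54 and 4.17, which lay -0.69 and 0.21 from their sums. All 5 lay within 2-fold of the sum.

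Among genes that passed 2-fold with both steps, 53 of 142 lay within 2-fold of the sum, 88 fell short and 1 went beyond. The genes ranked first in this class by their smaller step were mostly low on the E+CD133- array alone. VIM, the intermediate filament vimentin, had signals of 20200.2 in E-CD133+, 12448 in E+CD133+, 12938 in E-CD133- and 1740.2 in E+CD133- cells, high on 3 arrays and lower on the E+CD133- array. YARS2, a mitochondrial tyrosyl-tRNA synthetase, was 2509 in E-CD133+, 2164 in E+CD133+, 2682 in E-CD133- and 458 in E+CD133- cells. XIAP, an inhibitor of caspases, had 3316 in E-CD133+, 3918 in E+CD133+, 5307 in E-CD133- and 656 in E+CD133- cells on its chosen probe set, but 4 of its 6 other probe sets had the opposite direction. TNFSF10, the death ligand TRAIL, was the mirror case at 188 in E-CD133+, 307 in E+CD133+, 390.3 in E-CD133- and 1913 in E+CD133- cells, high on the E+CD133- array. The other genes at the top of this class were CASTOR2, TTF2, ZXDB, RUNX2 and TLE4, with combined ratios of 2.49, 2.43, 2.72, 2.62 and 3.40, and, among lower genes, PLEK2, CEP20, C4BPB, NGEF and PCGF5, between -2.82 and -1.05. The other probe set of TTF2 had the opposite direction. For such genes the class rests on 1 array, which all these ratios share. RUNX2 was under the floor in E+CD133- cells and PLEK2, CEP20, C4BPB and PCGF5 in E-CD133+ cells, so their ratios are bounds.

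The HOXB cluster went with CD133 and differed little with the E-cadherin sort. HOXB genes are neighbouring transcription factor genes on chromosome 17 that pattern the body axis. Of 9 measured HOXB genes 8 were counted as lower (88.9%, against 4.42% of measured genes), each with the CD133 step alone. The median log2 ratio was -3.45 with both markers, -3.66 with the CD133 step and -0.17 with the E-cadherin step. Without probe sets marked as shared 4 of 7 were lower, with a median of -3.09 with both markers. HOXB7 had signals of 456 in E-CD133+, 310.0 in E+CD133+, 5263 in E-CD133- and 5469 in E+CD133- cells. HOXB6 had 177 in E-CD133+, 102 in E+CD133+, 2959 in E-CD133- and 3319 in E+CD133- cells, and both were high on the CD133-low arrays only. The antisense gene HOXB-AS3 was at least 11.8-fold lower, with its probe sets taken as annotated and 4 others in the same direction. Outside HOXB, 7 of 16 measured HOXA, HOXC and HOXD genes were lower (43.75%, against 4.42% of measured genes) and 1, HOXC5, was higher. HOXA2 had signals of 23.1 in E-CD133+, 3.04 in E+CD133+, 790.3 in E-CD133- and 686 in E+CD133- cells. MCOLN3, a lysosomal cation channel, and SKAP2, an adaptor protein of immune cells, were also high on the CD133-low arrays: MCOLN3 had 28.4 in E-CD133+, 91.4 in E+CD133+, 3791 in E-CD133- and 1890.2 in E+CD133- cells, and SKAP2 had 368 in E-CD133+, 496 in E+CD133+, 5251 in E-CD133- and 6129 in E+CD133- cells. SYDE2, HOXB3, HOXB5 and GPC6, a glypican, completed the lower genes at the top of the comparison, with log2 ratios of -4.10, -3.91, -3.48 and -3.48. The SYDE2 value is a bound, since its E-CD133+ signal of 26.9 was under the floor.

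ID3 and ID2 encode inhibitors of basic helix-loop-helix factors and are targets of BMP signalling. ID3 was 181 in E-CD133+, 771 in E+CD133+, 19862 in E-CD133- and 17878 in E+CD133- cells, which made it 98.9-fold lower in E-CD133+ than in E+CD133- cells. The CD133 step gave -4.53 and the E-cadherin step 0.15, and the combined ratio of -6.63 minus their sum was -2.24. ID2 was 636 in E-CD133+, 1159.6 in E+CD133+, 14619.6 in E-CD133- and 8892 in E+CD133- cells, with a difference of -1.58. SMAD6, an inhibitory SMAD of the same pathway, had a combined log2 ratio of -2.19. Of 19 measured ID and BMP pathway genes 5 were lower and 1 higher, with a median of -0.02. The share that was lower was 26.3%, against 4.42% of measured genes. Without probe sets marked as shared 2 of 13 were lower.

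Genes that were higher with CD133 included several at the top of the comparison. EDIL3, a secreted integrin-binding protein, had signals of 9271 in E-CD133+, 7185 in E+CD133+, 33.9 in E-CD133- and 45.3 in E+CD133- cells, below the floor in both CD133-low populations and at least 162-fold higher. S100A4 and S100A6 are calcium-binding proteins of motile and mesenchymal cells. S100A4 was 5970.0 in E-CD133+, 5129 in E+CD133+, 196 in E-CD133- and 286 in E+CD133- cells. S100A6 was 5796 in E-CD133+, 941 in E+CD133+, 32 in E-CD133- and 10.7 in E+CD133- cells and differed from its sum by 2.62, since E-CD133+ cells exceeded E+CD133+ cells. Of 14 measured S100 genes 5 were counted as higher (35.7%, against 7.9% of measured genes) and 0 as lower. S100A10 was among the higher genes and went with the E-cadherin step at 1149 in E-CD133+, 261 in E+CD133+, 742 in E-CD133- and 255 in E+CD133- cells.

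SPP1 and CCND2 passed 2-fold with the CD133 step, yet most of their difference appeared where both markers differed. SPP1 encodes osteopontin, a secreted phosphoprotein that binds integrins and CD44. Its signals were 18749.8 in E-CD133+, 428 in E+CD133+, 182 in E-CD133- and 176 in E+CD133- cells, a 107-fold difference, with an excess of 5.41 over the summed log2 steps. CCND2, the cell-cycle regulator cyclin D2, had 4749 in E-CD133+, 418 in E+CD133+, 11.8 in E-CD133- and 66.5 in E+CD133- cells and an excess of 3.73. PPARG, the nuclear receptor of adipogenesis, had 1125 in E-CD133+, 278 in E+CD133+, 90.5 in E-CD133- and 61.3 in E+CD133- cells, and FABP4, a fatty-acid-binding protein and known target of PPARG, had 1543 in E-CD133+, 239.9 in E+CD133+, 34.6 in E-CD133- and 31.3 in E+CD133- cells. All 4 were highest in E-CD133+ cells, next highest in E+CD133+ cells and low in both CD133-low populations.

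Of 18 measured cholesterol synthesis genes 7 were counted as higher (38.9%, against 7.9% of measured genes) and 0 as lower. Their median log2 ratio was 0.52 with both markers, 0.91 with the CD133 step and -0.43 with the E-cadherin step. Between the CD133-high arrays the median E-cadherin-low over E-cadherin-high ratio was 0.06. In 1 of the 18 genes the steps passed 2-fold in opposite directions and the combined ratio did not pass it. HMGCS1, the synthase that precedes the rate-limiting reductase, had 5778 in E-CD133+, 5291 in E+CD133+, 1012 in E-CD133- and 1544 in E+CD133- cells, and MSMO1, a sterol oxidase, had 14961 in E-CD133+, 11873 in E+CD133+, 3479 in E-CD133- and 4285 in E+CD133- cells. In both genes the CD133-high arrays were the higher pair.

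Genes with opposed steps showed cancellation directly. In 34 genes the steps passed 2-fold in opposite directions and the combined ratio did not pass it. LGR4, a receptor for the R-spondin enhancers of Wnt signalling, had signals of 774 in E-CD133+, 3813 in E+CD133+, 194 in E-CD133- and 1049 in E+CD133- cells. Its E-cadherin step of -2.43 and CD133 step of 1.86 left a combined log2 ratio of -0.44. DKK1, a secreted Wnt inhibitor, ran the other way at 2289 in E-CD133+, 375 in E+CD133+, 4879 in E-CD133- and 1353 in E+CD133- cells, with steps of 1.85 and -1.85 and a ratio of 0.76. CHRDL1, an antagonist of BMP, had steps of -1.44 and 1.92 and ended at -0.06. LMO7, an actin- and junction-associated protein, had 450.0 in E-CD133+, 2109 in E+CD133+, 80.4 in E-CD133- and 546 in E+CD133- cells and ended at -0.28. The other 6 genes at the top of this class were CRIP2, ADGRL2, BAMBI, SERPING1, SGMS2 and TMC4, with combined ratios between -0.99 (BAMBI) and 0.96 (SERPING1). SGMS2 had 0.17 on its chosen probe set, but its other probe sets were past 2-fold lower, with -1.33 and -1.15. Genes of this class are far apart between single-marker populations and close between E-CD133+ and E+CD133- cells.

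A further 809 genes passed 2-fold with a single step, or with both in one direction, and not with both markers. The E-cadherin step was lost in 373 of them, the CD133 step in 388 and both in 48. In 36 genes with opposed steps the combined ratio followed CD133. LGALS1, the secreted lectin galectin-1, had 18772 in E-CD133+, 15831 in E+CD133+, 584 in E-CD133- and 1764 in E+CD133- cells, with an E-cadherin step of -1.59 and a combined ratio of 3.41. FABP7, a fatty-acid-binding protein of neural progenitors, had 28.9 in E-CD133+, 37.5 in E+CD133+, 7086 in E-CD133- and 377 in E+CD133- cells, so its E-cadherin step of 4.23 was absent among CD133-high cells, where both arrays lay under the floor. GATA3, a transcription factor of several epithelia, had 154 in E-CD133+, 73.7 in E+CD133+, 3523 in E-CD133- and 1469.7 in E+CD133- cells and followed CD133. GATA2 had 513 in E-CD133+, 429.5 in E+CD133+, 2788 in E-CD133- and 1330.2 in E+CD133- cells and did the same, whereas GATA6, a factor of lung and gut endoderm, went with the E-cadherin step at 777 in E-CD133+, 1689 in E+CD133+, 896 in E-CD133- and 2999 in E+CD133- cells. With FOXA1, described below, these were the 4 of 14 measured lung lineage factors counted as lower (28.6%, against 4.42% of measured genes), and 0 were higher. APOBEC3B, a cytidine deaminase, was 8525 in E-CD133+, 6552 in E+CD133+, 481 in E-CD133- and 1757 in E+CD133- cells, highest on both CD133-high arrays. SERPINI1, ROBO2, ARHGAP18 and GSTM3 were likewise higher, with combined ratios of 2.41, 2.40, 1.81 and 1.51, and SMAD9 and SEMA6D lower, with -2.81 and -1.48. The other probe set of GSTM3 had the opposite direction.

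Neuronal cytoskeleton and neurosecretory genes held several of these patterns: of 16 measured, 5 were counted as higher (31.25%, against 7.9% of measured genes) and 0 as lower. Their median log2 ratio was 0.64 (0.25 when signals were floored at the higher, 65th percentile). MAP2, a microtubule-associated protein of dendrites, went with the E-cadherin step at 1886 in E-CD133+, 119 in E+CD133+, 3178 in E-CD133- and 135 in E+CD133- cells. TUBB2B, a neuronal tubulin, had opposed steps of -1.33 and 2.63 and followed CD133 at 2308 in E-CD133+, 2039 in E+CD133+, 131 in E-CD133- and 328 in E+CD133- cells. ABCG2, a drug efflux pump used to define stem-like side populations, had signals of 957 in E-CD133+, 301 in E+CD133+, 199 in E-CD133- and 392 in E+CD133- cells. Its combined log2 ratio was 1.29, against -0.98 for the E-cadherin step and -0.38 for the CD133 step, both under 2-fold.

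**Figure D3:**
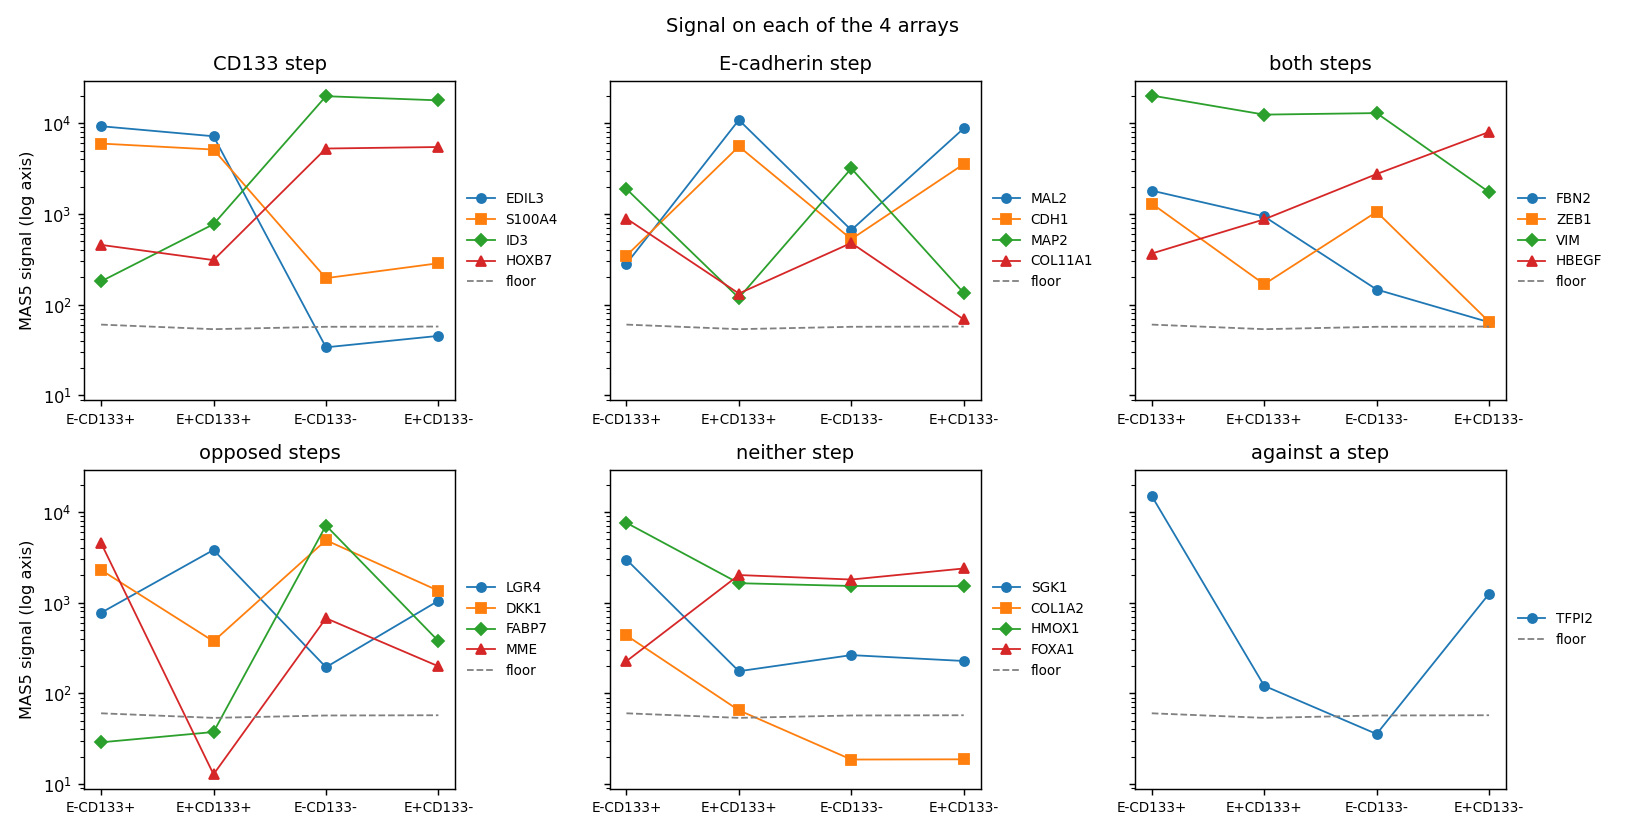
Deposited MAS5 signal (vertical log axis) on the E-CD133+, E+CD133+, E-CD133- and E+CD133- arrays for genes of each pattern, 1 panel a pattern; each point is 1 array, lines only join the points of a gene, and the dashed line is the floor of each array. SGK1 and HMOX1 are high and FOXA1 low on the E-CD133+ array alone, whereas HOXB7 and EDIL3 follow the CD133 sort and MAL2 and CDH1 the E-cadherin sort.

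To find changes seen with neither marker alone, a stricter group was taken in which both steps were under 1.5-fold and the combined ratio lay at least 1 log2 unit from their sum. It held 186 genes, 139 higher (0.987%) and 47 lower (0.334%), together 1.32% of measured genes. The same count with another array in the place of E-CD133+ gave 126 genes for E-CD133- (44 higher and 82 lower), 63 for E+CD133+ and 75 for E+CD133-. A gene above the floor only on the array that stands apart has steps of 0 by the floor rule, so it meets the step limits by construction. Among genes above the floor on all 4 arrays the counts were 105 for E-CD133+, 80 for E-CD133-, 41 for E+CD133+ and 52 for E+CD133-. With the floor at the 25th percentile, 445 genes stood apart for E-CD133+ and 478 for E+CD133-, and without a floor 382 and 421, so that E-CD133+ no longer held the most genes. At 4-fold or more, 32 genes were higher and 5 lower in E-CD133+ cells. The E-CD133+ array also had the highest 3′ over 5′ control ratios, as given above, and the part of this in the counts was not tested.

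**Figure D4:**
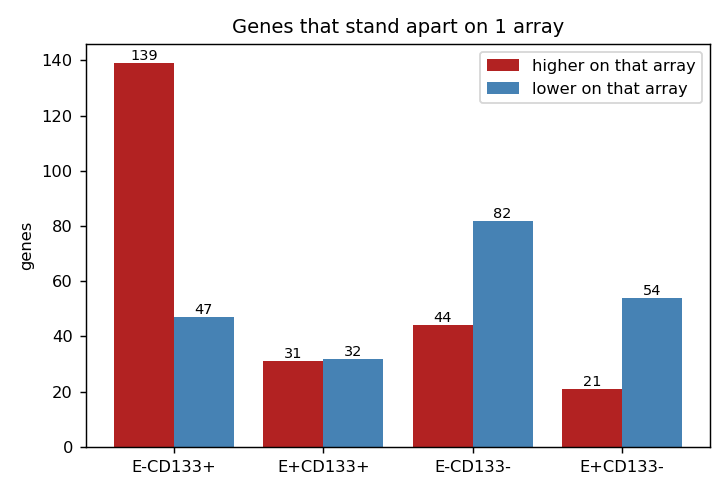
Genes on the vertical axis that stand apart on 1 array of the 4 by the stricter rule, higher (red, left) or lower (blue) on that array, with the floor at the median. E-CD133+ has 139 higher and 47 lower genes, and E-CD133- has 44 and 82.

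SGK1, a kinase induced by serum and glucocorticoids, led the higher genes of this group with signals of 2987 in E-CD133+, 175 in E+CD133+, 264 in E-CD133- and 228 in E+CD133- cells. Its steps were 0.22 and -0.37 and its combined log2 ratio 3.71. MFAP5, a microfibril glycoprotein, had 717 in E-CD133+, 82 in E+CD133+, 59.6 in E-CD133- and 72.1 in E+CD133- cells, and COL1A2, a chain of type I collagen, had 435 in E-CD133+, 65.1 in E+CD133+, 18.6 in E-CD133- and 18.8 in E+CD133- cells. MMP1, the interstitial collagenase, was 367 in E-CD133+, 60.1 in E+CD133+, 21.8 in E-CD133- and 3.64 in E+CD133- cells. TIMP1, an inhibitor of such proteases, was 272 in E-CD133+, 34.5 in E+CD133+, 67.4 in E-CD133- and 54.7 in E+CD133- cells. In each of these genes the E-CD133+ array was high and the other arrays lay near or under the floor or close to one another. CELF2, an RNA-binding protein, PCDH18, a protocadherin, RGS4, a regulator of G-protein signalling, and TMEM88, a membrane protein of Wnt signalling, shared the pattern, as did LINC00645 and LOC107984282, with log2 ratios of 3.02, 3.37, 3.26, 3.20, 2.84 and 2.62. Of these, all but CELF2 were under the floor in E+CD133- cells, so their ratios are lower bounds.

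FOXA1, a pioneer transcription factor of endodermal epithelia, led the lower genes with 226 in E-CD133+, 2016 in E+CD133+, 1798 in E-CD133- and 2381 in E+CD133- cells. Its E-cadherin step was -0.41, its CD133 step -0.24 and its combined ratio -3.39, and its 1 other probe set had the same direction. Its promoter, shown because the gene was low only where both markers differed, held the E-box once, 122 bases before the start.
FOXA1, chr14:37595250-37595499, minus strand: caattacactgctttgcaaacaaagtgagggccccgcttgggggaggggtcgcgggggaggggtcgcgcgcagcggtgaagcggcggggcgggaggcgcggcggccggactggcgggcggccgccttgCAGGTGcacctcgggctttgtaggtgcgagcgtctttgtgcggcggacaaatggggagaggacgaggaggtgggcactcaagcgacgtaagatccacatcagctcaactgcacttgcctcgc
FAM169A was 215 in E-CD133+, 1738 in E+CD133+, 1402 in E-CD133- and 1369.8 in E+CD133- cells. ITGA2, the alpha chain of a collagen receptor, was 380.3 in E-CD133+, 1172 in E+CD133+, 1518 in E-CD133- and 1581 in E+CD133- cells, and RAP2B, a small GTPase, was 3617 in E-CD133+, 11087 in E+CD133+, 11325 in E-CD133- and 12804 in E+CD133- cells, with 3 other probe sets in the same direction. SLC27A6, a fatty acid transport protein, had a log2 ratio of -2.94. On the chosen probe sets, all 5 of these had their lowest signal on the E-CD133+ array and 3 close signals elsewhere. The other RAP2B probe sets were also lower with each marker alone. They had 1811, 579 and 122 in E+CD133+ cells, 1862, 653 and 76.5 in E-CD133- cells and 3723, 1102 and 205 in E+CD133- cells. The remaining lower genes at the top of the group were NXT1, ENHO, MGME1, NME5 and GUSBP4, with log2 ratios of -2.17, -1.95, -1.64, -1.55 and -1.82. GUSBP4 has 1 other probe set, which had the opposite direction.

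HMOX1, heme oxygenase 1, had signals of 7586 in E-CD133+, 1639 in E+CD133+, 1527 in E-CD133- and 1519 in E+CD133- cells, within 1.5-fold of one another on 3 arrays and 4.99-fold higher in E-CD133+ than in E+CD133- cells. GCLM, the modifier subunit for glutathione synthesis, had 5241 in E-CD133+, 2348 in E+CD133+, 2818 in E-CD133- and 2230.1 in E+CD133- cells. Of 17 measured NRF2-regulated redox genes, 2 were higher and 2, SLC7A11 and SRXN1, lower, with a median of -0.05. Either share was 11.8%, against 7.9% of measured genes higher and 4.42% lower.

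Immediate early genes of the growth factor response stood higher in E-CD133+ cells than their steps added up to. Immediate early genes are transcription factors induced within minutes of a stimulus. Of 21 measured, 5 were counted as higher (23.8%, against 7.9% of measured genes) and 0 as lower. Their median log2 ratio was 0.63 with both markers, -0.53 with the E-cadherin step and 0.10 with the CD133 step, and all 21 combined ratios lay above the sum of their steps, against 7363 of all 14083 genes. Housekeeping and ribosomal protein genes also lay mostly above it, 12 of 13 and 30 of 35, but by medians of 0.05 and 0.10, against 1.21 for the immediate early genes. In 15 of the 21 (71.4%) the E-CD133+ array had the highest signal of the 4, against 30.2% of measured genes. JUN had 599 in E-CD133+, 247 in E+CD133+, 199.6 in E-CD133- and 187 in E+CD133- cells, EGR3 had 1280.3 in E-CD133+, 327 in E+CD133+, 127 in E-CD133- and 169 in E+CD133- cells, and FOSL1 had 294 in E-CD133+, 127 in E+CD133+, 38.4 in E-CD133- and 44.3 in E+CD133- cells. Of 16 measured feedback genes of ERK signalling 3 were higher (18.75%, against 7.9% of measured genes) and 0 lower. PHLDA1, one of them, had 1469 in E-CD133+, 213 in E+CD133+, 241 in E-CD133- and 164 in E+CD133- cells, and DUSP6, a phosphatase of ERK, had 13578 in E-CD133+, 8371 in E+CD133+, 6328 in E-CD133- and 1726 in E+CD133- cells.

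Among receptors, EGFR, that of epidermal growth factor, had 2118 in E-CD133+, 851 in E+CD133+, 535 in E-CD133- and 709 in E+CD133- cells, and ERRFI1, its feedback inhibitor, had 9205 in E-CD133+, 2490.2 in E+CD133+, 2668 in E-CD133- and 3018 in E+CD133- cells, and both were high on the E-CD133+ array alone. EGFR lies outside the naming rule and was chosen after its values were seen. The ligands HBEGF and TGFA were lower, with log2 ratios of -4.45 and -1.69. Of 11 measured members of the family and its ligands 2 were higher (18.2%, against 7.9% of measured genes) and 3 lower (27.3%, against 4.42%). Their median was 0.20 (-0.04 with the mean of a gene's probe sets), and the median distance of the combined ratio from the sum of the steps was 1.36. MET, the receptor of hepatocyte growth factor, was lower at 1909.8 in E-CD133+, 3282 in E+CD133+, 3969 in E-CD133- and 7327 in E+CD133- cells. Among receptors of the ephrin family, EPHA5 and EPHA7 had 3.23 and 2.22 with neither step past 2-fold, while EPHA1 (-2.57) and the ligand EFNB2 (2.90) went with the E-cadherin step. EPHA7 was under the floor in E+CD133- cells and EPHA1 in E-CD133+ cells, so both ratios are bounds.

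DNA replication genes went the other way and by less. Of 29 measured 0 were counted as higher and 1, GINS2, as lower, but the median log2 ratio was -0.50 with both markers, against 0.22 with the E-cadherin step and 0.03 with the CD133 step. In 28 of the 29 the combined ratio lay below the sum of the steps, and in 23 (79.3%) the E-CD133+ array was the lowest of the 4, against 24.2% of measured genes and 8 of 13 housekeeping genes (61.5%). GINS2, a subunit of the replicative helicase complex, had 1604 in E-CD133+, 2630.5 in E+CD133+, 4796 in E-CD133- and 4253 in E+CD133- cells. Of 27 measured mitosis genes 1, AURKB, was lower, with a list median of -0.19, and 18 (66.7%) were lowest on the E-CD133+ array. CDKN1A, the inhibitor p21, had 1710.4 in E-CD133+, 739 in E+CD133+, 337 in E-CD133- and 415 in E+CD133- cells, and CDKN1B, the inhibitor p27, had 4471 in E-CD133+, 2596 in E+CD133+, 2558 in E-CD133- and 1981 in E+CD133- cells, both highest on that array. Ribosomal protein genes were also low there: 32 of 35 had their lowest signal on it, with a median log2 ratio of -0.46 and 0 past 2-fold. That median was -0.03 after quantile normalization, whereas the DNA replication median was then -0.49.

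Of 14 measured histone genes 6 (42.9%, against 7.9% of measured genes) were counted as higher and 0 as lower, 5 had a log2 ratio below 0, and the median was 0.79. Without probe sets marked as shared 3 of 8 were higher, with a median of 0.52. H2BC21 had 2073 in E-CD133+, 763 in E+CD133+, 307 in E-CD133- and 248 in E+CD133- cells and H2BC4 had 508 in E-CD133+, 163 in E+CD133+, 158 in E-CD133- and 97 in E+CD133- cells. In 9 of the 14 the E-CD133+ array was the highest and in 3 it was the lowest.

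**Figure D5:**
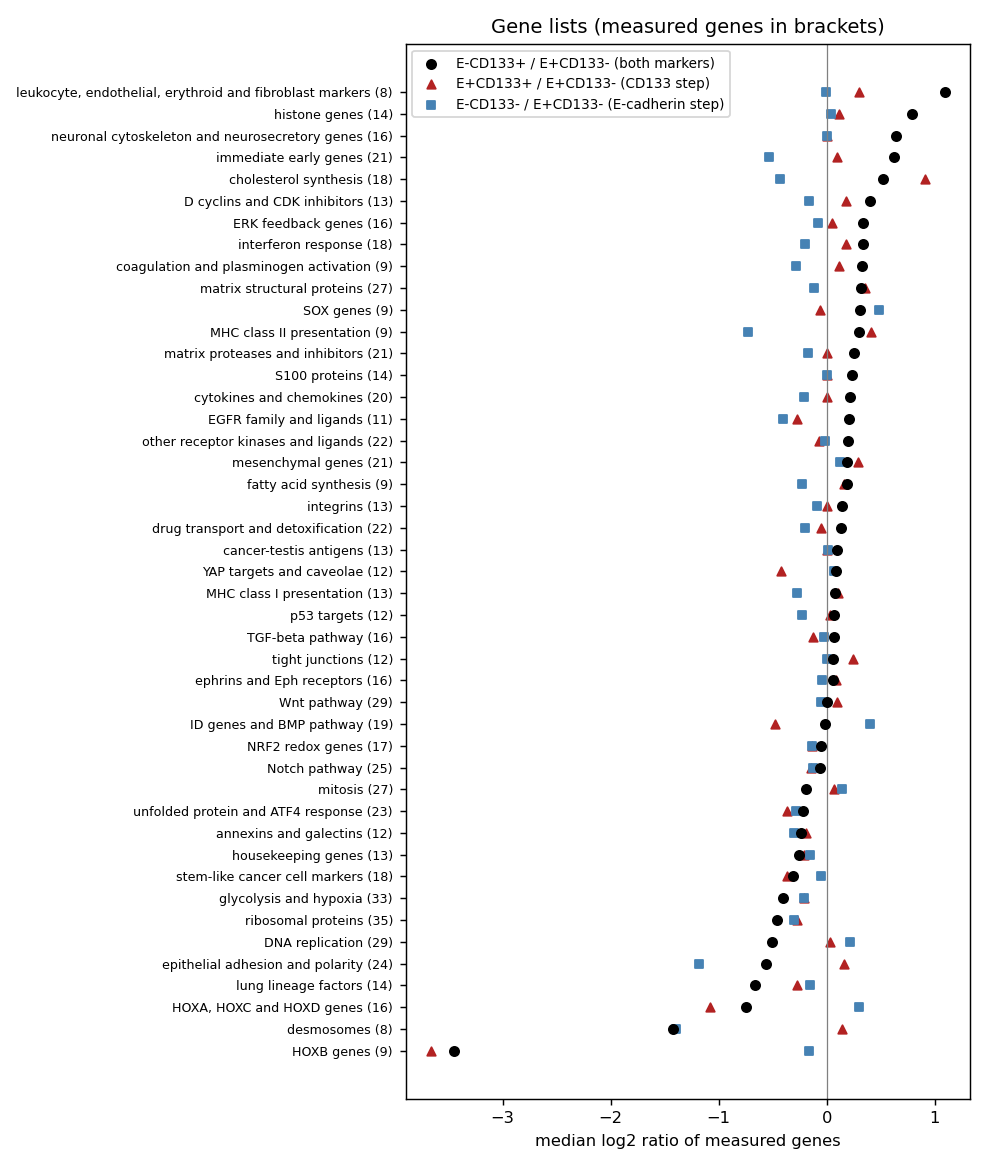
Median log2 ratio (horizontal axis) of the measured members of each gene list with at least 8 of them, for both markers (black circles), the CD133 step (red triangles) and the E-cadherin step (blue squares). Desmosome genes have both-marker and E-cadherin medians of -1.42 and -1.39, HOXB genes have both-marker and CD133 medians of -3.45 and -3.66, and DNA replication genes have a both-marker median of -0.50 with neither step below 0.

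TFPI2, an inhibitor of serine proteases of the matrix and of coagulation, gave the widest departure from a sum among the genes named here. Its signals were 14974 in E-CD133+, 121 in E+CD133+, 35.6 in E-CD133- and 1251 in E+CD133- cells. Each marker alone went with a lower signal, by log2 steps of -4.45 and -3.37, yet E-CD133+ cells were 12-fold higher than E+CD133- cells, 11.40 above the sum. The E-CD133- signal of TFPI2 was under the floor, so the step of -4.45 is a bound. Its 1 other probe set had the same direction. MME, the membrane peptidase neprilysin, had 4532 in E-CD133+, 12.8 in E+CD133+, 673 in E-CD133- and 199 in E+CD133- cells: the log2 ratio of CD133-high over CD133-low was 2.75 among E-cadherin-low cells and -1.89 among E-cadherin-high cells. Of 9 measured coagulation and plasminogen genes 4 were counted as higher (44.4%, against 7.9% of measured genes). When probe sets marked as shared were left out it was 1 of 8. PLAT, tissue plasminogen activator, had 620.0 in E-CD133+, 120.3 in E+CD133+, 26.7 in E-CD133- and 8.73 in E+CD133- cells, TFPI, the related inhibitor of coagulation, had 15938 in E-CD133+, 20252 in E+CD133+, 2135 in E-CD133- and 5444 in E+CD133- cells, and F2R, the thrombin receptor, had 2097 in E-CD133+, 1923 in E+CD133+, 855 in E-CD133- and 456 in E+CD133- cells.

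Markers of other cell types were examined because COL1A2, LUM and DCN, which fibroblasts express, were higher in E-CD133+ cells. Of 18 markers of leukocytes, endothelium, erythroid cells and fibroblasts, 14 were on the array and 8 were measured. Of these 8, 4 were counted as higher (COL1A2, LUM, DCN and PTPRC), 50% against 7.9% of all measured genes, and 0 as lower. The summed signal of the 14 on the array was 5576 in E-CD133+, 4553 in E+CD133+, 2713 in E-CD133- and 2669.8 in E+CD133- cells. Below the floor on every array were CD14, LYZ, VWF, CDH5, KDR and PDGFRB. PTPRC, the leukocyte antigen CD45, had 1102 in E-CD133+, 1246 in E+CD133+, 505 in E-CD133- and 346 in E+CD133- cells. LUM, the proteoglycan lumican, had 1390.1 in E-CD133+, 626 in E+CD133+, 131 in E-CD133- and 228 in E+CD133- cells, and DCN, decorin, had 358 in E-CD133+, 171 in E+CD133+, 52.9 in E-CD133- and 76.1 in E+CD133- cells. COL1A1, the other chain of type I collagen, was within 1.5-fold on all 4 arrays, with 1935 in E-CD133+, 2087 in E+CD133+, 1614 in E-CD133- and 1636 in E+CD133- cells. The part of other cells in these differences was not tested.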

How the data were processed

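The arrays were read as linear intensity for each probe set, as the authors deposited it. Per the submitters' processing notes the tool was MAS5, and its version is not given in the sources used here. Each array had the same mean, 500.1, once the highest and lowest 2% of probe sets were trimmed. The table had 54675 probe sets (62 controls) and no detection calls. Of these, 41097 had a single symbol in the platform annotation and gave 19775 genes, with the brightest probe set (mean log2) taken for each gene. The 1801 probe sets with several symbols and 11777 without one were not used. RefSeq (GRCh38.p14) held the gene IDs of 41043.

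The floor was the 50th percentile of each array, controls aside. Ratios between arrays that are both at the floor were set to 0 on the log2 scale. Classes used 2-fold, and sums were taken on the log2 scale. Precision is limited by the number of arrays. Alternatives were quantile normalization, equal array medians, other floors and thresholds, averaging the probe sets of a gene, dropping probe sets marked as shared, and keeping genes above the floor on all 4 arrays. Probe sets were taken as marked as shared when their names end in _s_at, _x_at or _a_at. The mark was read from the name, and probe sequences were not compared.

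The members, the gene lists and the rules were chosen with earlier results of these data known. Named by rule are CDH1 and PROM1, the first 15 genes in either direction of the combined ratio, and the first 8 in either direction among genes with both steps. The rule adds the first 10 in either direction of the stricter group, 10 cancelled genes, 10 with opposed steps that follow 1 of them, up to 4 counted members of each list, and the cell type markers. Of the list members and markers, the text gives those that show a pattern. CAV1, LAMA1, HOXC5, COL1A1 and EGFR lie outside the rule and were chosen after their values were seen. Figures were drawn with matplotlib 3.10.9, and values computed with pandas 2.3.3, scipy 1.17.1 and numpy 2.4.6 under Python 3.11.15.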

Additional observations from a re-analysis of the deposited data

Results flagged for a closer look

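Among the genes named, 2 had a single-marker step past 2-fold in opposite directions in the states of the other marker, and the difference was not tested. The CD133 step of MME was 2.75 between the E-cadherin-low arrays and -1.89 between the E-cadherin-high arrays, on the log2 scale. For TFPI2 the CD133 step was 8.04 and -3.37 between the same pairs of arrays, and its E-cadherin step was 6.95 between the CD133-high arrays and -4.45 between the CD133-low arrays. Over all measured genes the CD133 step was opposed in this way in 32 and the E-cadherin step in 33. Each value compares single arrays. TFPI2 was under the floor in E-CD133- cells and MME in E+CD133+ cells, so the steps that use those arrays are bounds.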

How the results depend on the processing

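No paired analysis was possible because each group has 1 array. Counts are given in the order genes higher, genes lower, E-cadherin step alone, CD133 step alone, both steps, neither step, opposed and cancelled, single step lost, other diagonal with E-cadherin, with CD133 and with neither, and the stricter group. With the floor at the 25th percentile they were 2421, 1647, 546, 957, 818, 1585, 75, 2673, 491, 927, 2650 and 445. Without a floor they were 3215, 2468, 787, 1192, 1507, 1648, 179, 3091, 1090, 1533, 3060 and 382. At 1.5-fold they were 2462, 1888, 406, 1297, 662, 1685, 98, 2109, 362, 1339, 2649 and 290, and at 3-fold 389, 177, 35, 164, 23, 334, 6, 224, 25, 137, 404 and 72. With each gene as the mean of its probe sets, 690 genes were higher and 397 lower, and the counts were 81 for the E-cadherin step alone, 284 for the CD133 step alone, 57 for both steps, 19 cancelled, 502 lost, 61 with E-cadherin, 281 with CD133 and 745 with neither on the other diagonal. With the floor at the 65th percentile they were 76 for the E-cadherin step alone, 89 for both steps, 17 cancelled, 441 lost, and 58 with E-cadherin and 302 with CD133 on the other diagonal. Among genes above the floor on all 4 arrays the stricter group held 105. Quantile normalization, equal array medians and leaving out shared probe sets kept every one of these counts within 1.5 times the value reported. Among genes counted with both markers, and with steps and combined ratio judged at the same fold, the neither class was the largest under each of these settings. For 141 of the genes named, 1055 combined ratios were compared across the settings judged at 2-fold. Of these, 1011 kept their side of the 2-fold line, 42 crossed it and 2 turned direction. The crossings included 18 with the mean of a gene's probe sets and 15 with the floor at the 65th percentile. GUSBP4 and GSTM3 turned direction when shared probe sets were left out, to log2 ratios of 0.92 and -0.05, and the cause was not tested. Medians of several lists turned sign: leaving out shared probe sets gave -0.42 for YAP targets and 0.06 for keratins, and the floor at the 25th percentile gave -0.11 for coagulation genes. Without replicates or detection calls, dim genes are the least certain.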
